A study of Mus musculus with 2 samples.

Results

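Articular cartilage ends in a superficial zone, a thin layer of flattened cells at the joint surface that makes the lubricant of the joint. The genes described here are 9 genes taken as markers of this zone or of the matrix near it, picked by symbol out of the 23628 genes listed in each library. They are *Prg4* (lubricin), the transcription factor genes *Creb5* and *Erg*, the matrix genes *Abi3bp*, *Cilp*, *Cilp2* and *Tnc*, the chaperone gene *Clu* and the adhesion gene *Vcam1*. All 9 were listed in both libraries.

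The data are RNA-sequencing of 2 libraries of 1 group, Sox9GFPHi chondrospheres, named here replicate 1 and replicate 2. The cells came from femoral heads of Sox9GFP reporter pups at postnatal day 7 and were sorted for high GFP, for viability and for absence of the lineage markers CD31, Ter119 and CD45. They were seeded as single cells in methylcellulose at low oxygen, where each colony grows into a chondrosphere, in a serum-containing medium that carried FGF2, BMP4, IGF1, LIF and TGF-β1. Both libraries share all of this, so there is no untreated group, no other zone of cartilage and no freshly isolated cell in the comparison. Per the methods each pup was a separate biological replicate, and the labels do not tie a library to a pup. With 1 condition there is no test between groups, and each difference below is one between 2 libraries.

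Lubricin is a large mucin-like glycoprotein that coats the cartilage surface and lowers friction. It is made by superficial zone chondrocytes and by cells of the synovial lining, and its gene responds to TGF-β, which was present in this medium. CREB5 is a transcription factor required for lubricin expression in superficial zone cells, and ERG is an ETS factor of developing joints and articular cartilage that endothelial cells also express.

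Levels are CPM, the reads on a gene when those of its library are scaled to a total of 1000000. The smallest step between low values puts the depth on genes at 43300000 reads for replicate 1 and at 42200000 for replicate 2, where 1 read is worth 0.0231 and 0.0237 CPM. At this depth 3 reads correspond to 0.0693 CPM in replicate 1 or 0.0712 CPM in the other library. The intervals given below (95%, exact Poisson for a level and normal on the log scale for a ratio) cover counting error only. They treat the implied reads as counts, although not all are whole. Ratios between the libraries are log2 ratios of replicate 2 to replicate 1 after adding 0.1 CPM, which understates the change of low genes. They are centred on the median gene: 12631 genes averaged 1 CPM or more, and their median log2 ratio was 0.30, so that a gene of equal CPM in both libraries lay 0.30 below the median gene. The SD of the centred ratio over these genes was 0.83.

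The libraries also stood apart from each other in genes outside the surface set. Of the chondrocyte markers, *Col2a1* (type II collagen) and *Acan* (aggrecan) were high in both. *Col2a1* was at 148953 CPM in replicate 1 against 100682 in replicate 2, and *Acan* at 14170 and 12002 CPM. *Sox9*, the gene of the reporter, was at 252 and 279 CPM. Not all chondrocyte markers were high, and *Epyc* had 1.22 and 0.688 CPM. *Matn1* and *Matn3*, which encode cartilage matrilins, had 902 and 741 CPM in replicate 1 and 29.2 and 53.1 CPM in replicate 2. *Dmp1*, a gene of osteocytes and mineralizing matrix, had 0.116 CPM in replicate 1 against 40.4 in replicate 2. In these bulk libraries fewer cells of a type and less RNA per cell cannot be told apart, for any of the genes below.

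*Prg4* was by far the highest of the 9 genes. It lies on chromosome 1 of GRCm38 from 150449412 to 150466165 on the minus strand, with 12 exons in its longest coding transcript. Its level was 4094 CPM in replicate 1 (95% counting interval 4075 to 4113) and 3295 CPM in replicate 2 (3277 to 3312), a mean of 3694 ± 565 CPM (SD, n = 2). It ranked 17 among all genes in each library. The level in replicate 1 was 1.24-fold that in replicate 2, and the centred log2 ratio was -0.62 (counting interval -0.63 to -0.61), inside 2-fold. Of all genes at 1 CPM or more, 12.5% had a lower ratio than *Prg4*.

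Features of the *Prg4* transcript bear on how its reads can be counted, and their sequences are printed for that reason. The mucin-like part of lubricin is encoded by a tandem repeat within exon 6, and its most frequent unit of 24 bases occurs in 18 exact copies over 1290 bases at chr1:150454593-150455882 (GRCm38, minus strand). Of the 4214 windows of 50 bases in the longest coding transcript, the length of the reads, 760 (18.0%) occur more than once within that transcript. A read from such a window still belongs to *Prg4*, since no other gene shares a window on the same strand. A further check of 50-base windows over all *Prg4* transcripts found 157 of 3955 distinct windows (3.97%) shared with *Tpr*, a neighbour on the opposite strand, from which reads could be told apart only by strand. The libraries were stranded, but whether the authors' counting used strand is not stated in the sources used here. The study's quantitative PCR primers lie outside the repeat, in exons 9 and 10, and amplify 148 bases of 6 of the 8 annotated *Prg4* transcripts and of no other gene. The repeat unit is given on the strand of the gene, the primers as ordered 5′ to 3′, at chr1:150451957-150451974 for the forward and chr1:150451423-150451442 for the reverse primer. No letters are in capitals, as no part is singled out.
Prg4 repeat unit: cccaaggagcctgaacccacaact
Prg4 forward primer: gatcctgggtatcctaaa
Prg4 reverse primer: tataagtgtactgctgaatg

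The transcription factor genes were much lower than *Prg4* and were lower in replicate 2. *Creb5* (chromosome 6, 53287270 to 53700376, plus strand) had 7.79 CPM in replicate 1 (337 implied reads, interval 6.98 to 8.66) and 1.33 CPM in replicate 2 (56 reads, interval 1.0 to 1.73). The level in replicate 1 was 5.86-fold that in replicate 2, with a centred log2 ratio of -2.77 (interval -3.18 to -2.36), and the intervals of the levels did not overlap. *Creb5* was thus detected in both libraries at depths well above 3 reads, while *Prg4* stayed within 2-fold between the same libraries. *Erg* (chromosome 16, 95359169 to 95586593, minus strand) had 54.3 CPM in replicate 1 (interval 52.2 to 56.6) and 14.5 CPM in replicate 2 (13.4 to 15.7). The level in replicate 1 was 3.75-fold that in replicate 2, with a centred log2 ratio of -2.20 (interval -2.33 to -2.07). Only 0.523% of genes at 1 CPM or more had a lower ratio than *Creb5*, and 1.03% than *Erg*.

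Because *Creb5* encodes a factor that binds cyclic AMP response elements (CRE), its own promoter was searched for that motif and for those of related factors. RefSeq (GRCm38.p6) gave 9 start windows for 5 of the 9 genes (*Creb5*, *Erg*, *Cilp*, *Cilp2* and *Tnc*), each taken as the 250 bases before a start. Of these 9 windows, 1 held a full CRE (TGACGTCA, a palindrome), at the first *Creb5* start, against 1.55% of all 32851 windows in the table. The motif begins 45 bases before that RefSeq start. GENCODE places a *Creb5* exon over the last 33 bases of that window, which are not printed below. The CRE half-site TGACG, which lies within the full site, was in 1 of the 9 windows, the same one, and in 17.8% of all windows. The AP-1 motif TGANTCA was in 1 of 9, at the second *Creb5* start, and in 6.75% of all. That match overlaps an annotated *Creb5* exon. The SOX motif ACAATG was in 1 of 9, at the third *Erg* start, and in 10.7% of all. The ETS motif CCGGAA and the FOXO motif TGTTTAC were in none of the 9, against 12.0% and 3.17% of all windows. The 2 *Tnc* windows overlap. Both strands were searched and the motifs were chosen with the values of the genes known. A match is a run of letters, not a bound site. The *Creb5* window is printed up to the first base of the annotated exon, at chr6:53287053-53287269 on the plus strand, with the CRE in capitals.
Creb5 promoter: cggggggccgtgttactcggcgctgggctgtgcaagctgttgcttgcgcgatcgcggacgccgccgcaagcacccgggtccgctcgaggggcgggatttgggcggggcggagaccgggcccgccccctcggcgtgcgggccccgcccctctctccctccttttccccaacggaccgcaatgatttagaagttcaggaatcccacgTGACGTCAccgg

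Among the matrix genes, *Abi3bp*, *Cilp2* and *Cilp* were lower in replicate 2, and *Tnc* was not. *Abi3bp* encodes a secreted matrix protein that binds ABI family member 3 (chromosome 16, 56477878 to 56690135, plus strand). It had 75.2 CPM in replicate 1 (interval 72.7 to 77.9) and 7.83 CPM in replicate 2 (7.01 to 8.72), and its 9.61-fold difference, a centred log2 ratio of -3.55 (interval -3.72 to -3.39), was the largest of the 9 genes. Of all genes at 1 CPM or more, 0.245% had a lower ratio.

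*Cilp2* and *Cilp* encode related secreted proteins named after the intermediate layer of cartilage. *Cilp2* (chromosome 8, 69880369 to 69887687, minus strand) had 213 CPM in replicate 1 against 61.7 in replicate 2, with a centred log2 ratio of -2.09 (interval -2.16 to -2.03). *Cilp* (chromosome 9, 65265180 to 65280605, plus strand) was the lowest gene of the set in CPM, at 2.19 CPM in replicate 1 (95 reads, interval 1.78 to 2.68) and 0.664 CPM in replicate 2 (28 reads, interval 0.441 to 0.960). Its centred log2 ratio of -1.89 had the widest counting interval, from -2.50 to -1.28. In both libraries *Cilp2* was the paralog with the higher level, also per kilobase, and no 50-base window of either gene is shared with another gene.

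*Tnc* encodes tenascin-C, a matrix glycoprotein of the perichondrium and of developing joints (chromosome 4, 63959785 to 64047015, minus strand). It was the 1 gene of the set with more CPM in replicate 2, at 98.2 CPM in replicate 1 (interval 95.2 to 101) and 128 CPM in replicate 2 (125 to 132). The difference was 1.31-fold, which on the centred scale was 0.08 (interval 0.02 to 0.14), close to the median gene. Its mean of 113 ± 21.3 CPM had an SD of 18.8% of the mean, and that of *Prg4* was 15.3%. For the other 7 genes this share ran from 56.1% (*Clu*) to 115% (*Abi3bp*).

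*Clu* and *Vcam1* were lower in replicate 2 by smaller folds. *Clu* encodes clusterin, a secreted chaperone (chromosome 14, 65968483 to 65981547, plus strand), and was the second highest gene of the set. It had 1193 CPM in replicate 1 (interval 1183 to 1204, rank 59 among all genes) and 516 CPM in replicate 2 (509 to 523, rank 156), a 2.31-fold difference with a centred log2 ratio of -1.51. *Vcam1*, an adhesion receptor of the immunoglobulin superfamily (chromosome 3, 116109949 to 116129688, minus strand), had 35.6 CPM in replicate 1 against 14.9 in replicate 2, with a centred log2 ratio of -1.55 (interval -1.69 to -1.42). Of the windows of 50 bases, 0.272% for *Vcam1* and 0.493% for *Creb5* are shared with other genes on the same strand, and 1.04% for *Tnc* with an antisense transcript, so their counts are slightly uncertain, while *Erg*, *Abi3bp*, *Cilp*, *Cilp2* and *Clu* share none.

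**Figure D1:**
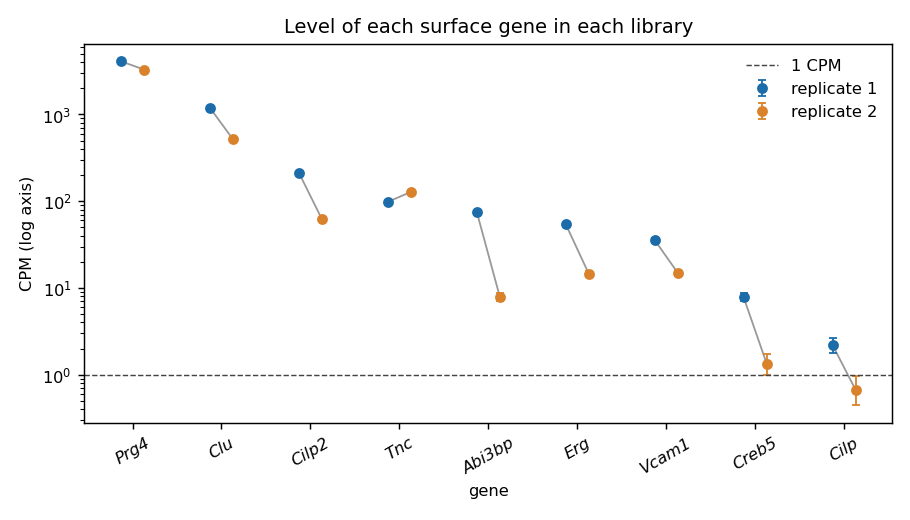
CPM of the 9 surface genes (log axis) in replicate 1 and replicate 2, with 95% counting intervals, which are narrower than the points for most genes. Grey lines join the libraries of 1 gene, and the dashed line marks 1 CPM. All genes but *Tnc* are lower in replicate 2, and *Cilp* is below 1 CPM there.

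Of the 9 genes, 8 had a ratio of replicate 2 to replicate 1 below that of the median gene. On the centred scale 7 were lower in replicate 2 by more than 2-fold, where 6.06% of all 12631 genes were. None of the 9 was higher by more than 2-fold, where 7.43% of all genes were. With the CPM as deposited, 7 of 9 were again lower by more than 2-fold, against 3.71% of all genes. The median centred ratio of the 9 genes was -1.89, against 0 for all genes by construction. At least 1 CPM in both libraries was reached by 8 of the 9, all but *Cilp*. As these are 2 libraries of the same group, the values describe how far the libraries differ and not an effect of any treatment, and whether the genes vary with the composition of the cultures was not tested.

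**Figure D2:**
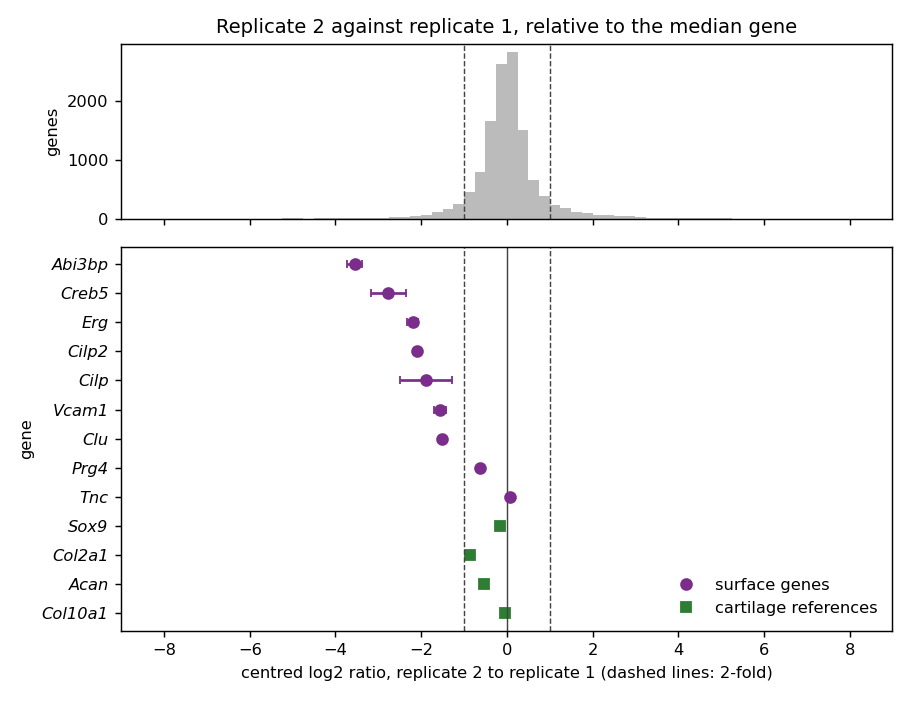
Centred log2 ratio of replicate 2 to replicate 1. The upper panel is a histogram of the 12631 genes that average 1 CPM or more, and the lower panel shows the surface genes (circles, with 95% counting intervals) and 4 cartilage reference genes (squares). Dashed lines mark 2-fold. The ratios of 7 surface genes lie left of the lower 2-fold line, and *Prg4*, *Tnc* and the 4 reference genes lie between the lines.

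Each gene was also set against *Acan*, *Col2a1* and *Sox9* of the same library. Such a ratio does not depend on how the libraries were scaled. The log2 ratio of *Prg4* to *Acan* differed between the libraries by -0.07 (replicate 2 minus replicate 1), that to *Col2a1* by 0.25 and that to *Sox9* by -0.46. Against *Acan*, the log2 ratio of *Abi3bp* differed by -3.02, that of *Creb5* by -2.31 and that of *Erg* by -1.67. For *Cilp2*, *Cilp*, *Vcam1* and *Clu* the same differences were -1.55, -1.48, -1.02 and -0.97, so *Clu* was not past 2-fold when measured against *Acan*. Against *Col2a1*, which was itself lower in replicate 2, *Vcam1* (-0.69) and *Clu* (-0.65) were both inside 2-fold, and *Tnc* was higher in replicate 2 by 0.95. Against *Sox9*, *Abi3bp* differed by -3.41, *Creb5* by -2.7, *Erg* by -2.05 and *Cilp2* by -1.94. For *Cilp*, *Vcam1* and *Clu* the differences were -1.87, -1.4 and -1.36, also past 2-fold, and for *Tnc* 0.24.

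The 9 genes together made up 5774 CPM in replicate 1 against 4039 in replicate 2, or 0.577% and 0.404% of all reads on genes. *Prg4* was 70.9% of that sum in replicate 1 and 81.6% in replicate 2. The sum over the other 8 genes was 1680 CPM in replicate 1 against 745 in replicate 2, and *Clu* took 71.0% and 69.2% of it.

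To compare genes with each other, CPM was divided by the kilobases of annotated exons. On this scale *Prg4* had 956 CPM per kilobase in replicate 1 and 770 in replicate 2, above 99.7% of genes in each. *Clu* followed with 347 and 150, then *Cilp2* with 49.5 and 14.3, *Tnc* with 12.6 and 16.5, and *Erg* with 15.7 and 4.18. *Abi3bp* had 10.1 and 1.06, *Vcam1* 4.01 and 1.68, *Cilp* 0.516 and 0.156, and *Creb5* 0.311 and 0.0531 CPM per kilobase. The steps from *Cilp2* to *Tnc* (mean log2 ratio 0.88 ± 1.54, SD, n = 2), from *Tnc* to *Erg* (0.83 ± 1.62) and from *Abi3bp* to *Vcam1* (0.33 ± 1.42) were smaller than their spread, and each turned round in 1 of the libraries. The other 5 steps exceeded their SD. *Creb5* has 25021 bases of annotated exons, against 7917 bases in its longest coding transcript, so its place depends on which length is used: with coding transcripts *Creb5* had 0.984 and 0.168 CPM per kilobase and stood above *Cilp*, at 0.529 and 0.160, a step of -0.48 ± 0.58 for *Cilp* over *Creb5*. The same length gave a mean log2 step from *Abi3bp* to *Vcam1* of -0.51 ± 1.42, again under its spread, and brought the step from *Erg* to *Abi3bp* to 0.89 ± 0.96, under its spread.

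*Prg4* exceeded *Clu* per kilobase by 2.75-fold in replicate 1 and 5.13-fold in replicate 2, and *Cilp2* by 19.3-fold and 53.8-fold. With coding transcript lengths the log2 ratio of *Prg4* to *Clu* was 0.54 in replicate 1 and 1.44 in replicate 2, a mean of 0.99 ± 0.63 in place of 1.91 ± 0.63. Against *Tnc* the ratio was 75.7-fold and 46.6-fold, the 1 ratio to another surface gene that was smaller in replicate 2. Beside the cartilage references, *Prg4* was at 0.504 and 0.479 of the level of *Acan* (log2 ratio -1.02 ± 0.05), and far under *Col2a1* (-3.95 ± 0.18). It was above *Col10a1*, the collagen of hypertrophic chondrocytes, by 1.71-fold in replicate 1 and 1.14-fold in replicate 2 (log2 ratio 0.48 ± 0.41), and above *Sox9* by 15.7-fold and 11.4-fold. The 5 genes nearest to *Prg4* in log2 CPM per kilobase over the 2 libraries, of 12435 compared, were *Col11a2*, *Fmod*, *Col9a2*, *Tpt1-ps3* and *Col9a3*, at Euclidean distances from 0.137 to 0.505. *Tpt1-ps3* is a pseudogene whose reads may belong to its parent gene, and its level is uncertain.

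**Figure D3:**
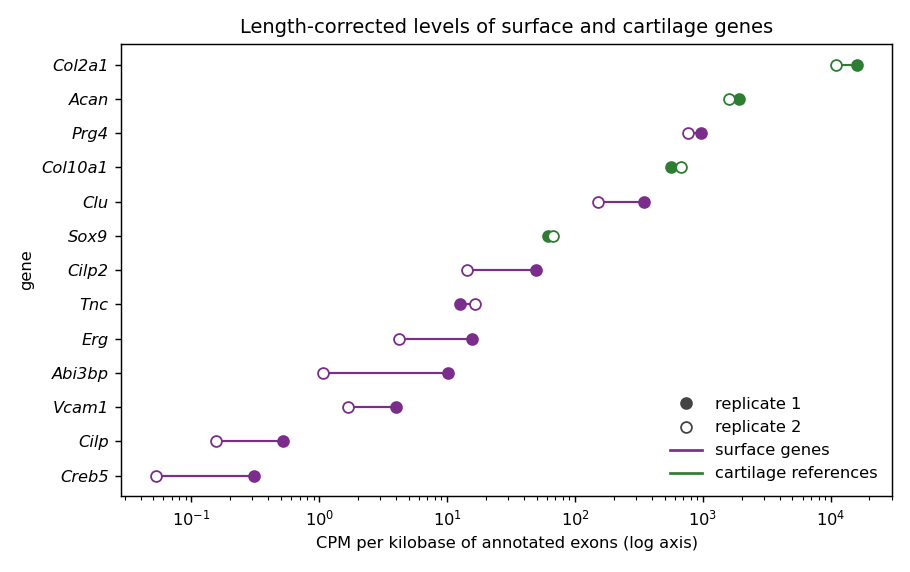
CPM per kilobase of annotated exons (log axis) of the 9 surface genes and 4 cartilage references in replicate 1 (filled) and replicate 2 (open), with a line joining the libraries. *Prg4* lies between *Acan* and *Col10a1* in both libraries, and the surface genes from *Cilp2* down lie below *Sox9*.

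Genes that act upstream of lubricin in other settings were then listed: FOXO, NFAT, SMAD and TGF-β factors, EGF receptor, β-catenin and parathyroid hormone signalling. Of 22 such genes, 21 had a mean of at least 1 CPM. None of the 21 was lower in replicate 2 by more than 2-fold and 3 were higher, with a median centred ratio of 0.18. For this list and those below, the shares over all genes were 6.06% lower and 7.43% higher on the centred scale. The 3 were *Nfatc1* (55.5 CPM in replicate 1 against 235 in replicate 2), *Nfatc2* (2.03 and 13.5 CPM) and *Tgfa* (8.94 and 26.0 CPM), a ligand of the EGF receptor. The highest by mean CPM were *Ctnnb1* (β-catenin, 412 and 673 CPM) and *Foxo1* (172 and 146 CPM), and the lowest was *Pthlh* (0.347 and 0.142 CPM). *Tgfb1* transcripts were present at 97.8 and 183 CPM, and those of the receptor *Tgfbr2* at 73.7 and 61.3 CPM. The receptor *Egfr* had 15.1 and 15.8 CPM. *Foxo3* (34.3 and 42.8 CPM), *Smad3* (33.4 and 35.2 CPM) and *Pth1r*, the receptor of parathyroid hormone-related peptide (137 CPM in each library), were inside 2-fold.

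Genes of the joint interzone, the layer from which the joint surface forms in the embryo, ranged from 0 to 164 CPM. Of 13 listed, 9 reached a mean of 1 CPM, and 6 of these were lower in replicate 2 by more than 2-fold on the centred scale and none higher, with a median of -1.03. Without centring, and with 0.1 CPM added as before, 2 of the 9 were lower by more than 2-fold, against 3.71% of all genes. The 6 were *Sfrp2*, a secreted Wnt modulator (37.0 CPM in replicate 1 against 1.33 in replicate 2), *Osr2* (4.09 and 0.403 CPM), *Osr1* (1.48 and 0.712 CPM), *Barx1* (21.2 and 12.8 CPM) and the BMP antagonists *Nog* (14.8 and 7.52 CPM) and *Chrd* (13.1 and 7.95 CPM). *Gdf5*, the classic marker of the interzone, had 12.4 and 13.6 CPM, a centred ratio of -0.17. *Trps1* (121 and 164 CPM) and *Scx* (35.3 and 30.9 CPM) were the highest of the list by mean CPM, and *Gdf6* and *Wnt16* were listed at 0 in both libraries.

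A further list of 20 genes used as markers of the superficial zone or of nearby fibrous tissue had 11 genes at a mean of 1 CPM or more. Of these, 6 were lower and 2 higher in replicate 2 by more than 2-fold on the centred scale. With the CPM as deposited, 2 were lower, against 3.71% of all genes, and 3 higher, for which no share of all genes was computed. The lower genes included the small leucine-rich proteoglycan genes *Ogn* (104 CPM in replicate 1 against 30.3 in replicate 2) and *Aspn* (6.35 and 0.878 CPM), together with *Igfbp5* (282 and 158 CPM), *Postn* (periostin, 179 and 107 CPM), *Cytl1* (2.91 and 1.64 CPM) and *Notch1* (6.10 and 3.50 CPM). The higher genes were *Cd44*, the hyaluronan receptor (14.7 and 126 CPM), and *S100a4* (1.99 and 5.91 CPM). *Has2*, the hyaluronan synthase gene of the list with most CPM, had 24.5 and 55.3 CPM. *Tspan15* and *Col22a1*, a collagen gene of tissue junctions, were listed at 0 in both libraries. The list held genes past 2-fold in both directions.

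The families of the transcription factors were set beside them. Of 9 other CREB and ATF genes, all above 1 CPM on average, 1 was lower by more than 2-fold and none higher, with a median centred ratio of -0.03. The lower one was *Atf3*, a stress-response factor (9.80 CPM in replicate 1 against 5.84 in replicate 2), and it was inside 2-fold with the CPM as deposited. The highest were *Creb3l2* (383 and 463 CPM) and *Creb3l1* (82.8 and 170 CPM, past 2-fold only as deposited), and *Crem* was the lowest (2.18 and 1.98 CPM). *Creb1* had 14.1 and 19.3 CPM. Per kilobase of annotated exons, *Creb5* at 0.311 and 0.0531 CPM was below each of these genes in both libraries, among which *Crem* had 0.370 and 0.336 CPM per kilobase. That place rests on the long annotated exons of *Creb5*, and in CPM *Creb5* was above *Crem* in replicate 1.

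The ETS genes split. *Fli1*, a close relative of *Erg*, was lower in replicate 2 (4.83 CPM in replicate 1 against 2.49 in replicate 2), as was *Ets2* (77.6 and 37.0 CPM). *Fli1* was inside 2-fold with the CPM as deposited. *Etv1* (0.139 and 8.49 CPM), *Etv4* (0.162 and 3.37 CPM) and *Etv5* (7.09 and 65.1 CPM), known as targets of FGF signalling, were higher in replicate 2. *Ets1* had 44.7 and 37.2 CPM. Of the 7 ETS genes beside *Erg*, 2 were thus lower and 3 higher by more than 2-fold, with a median of 0.46.

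For the matrix and adhesion members, the other tenascins and the receptors were listed. *Tnn* (tenascin-N, also tenascin-W) was the 1 other tenascin gene at a mean of 1 CPM, with 16.5 CPM in replicate 1 against 54.4 in replicate 2. *Tnxb* (0.277 and 0.285 CPM) and *Tnr* (0.208 and 0.166 CPM) were close to the level of a few reads. Of 19 receptor and partner genes of VCAM1, tenascin-C, clusterin and lubricin, 14 were at 1 CPM or more, 3 higher in replicate 2 by more than 2-fold and none lower, with a median of 0.37. The 3 were *Itgav* (88.0 and 360 CPM), *Itgb3* (18.8 and 108 CPM) and *Cd44*. The highest were *Lrp1* (1076 and 1692 CPM) and *Itgb1* (408 and 760 CPM). *Itgb1* encodes the β subunit of several integrins, among them the VCAM1 counter-receptor α4β1, whose α subunit gene *Itga4* had 0.0924 and 0.593 CPM. *Itgb7*, of the counter-receptor α4β7, had 0.0693 and 0.0474 CPM, at or under the level of 3 reads. *Lrp2*, a clusterin receptor of epithelia, had 0.162 and 0.237 CPM. *Itga9*, which encodes the tenascin-C receptor subunit α9, had 1.69 and 2.80 CPM.

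**Figure D4:**
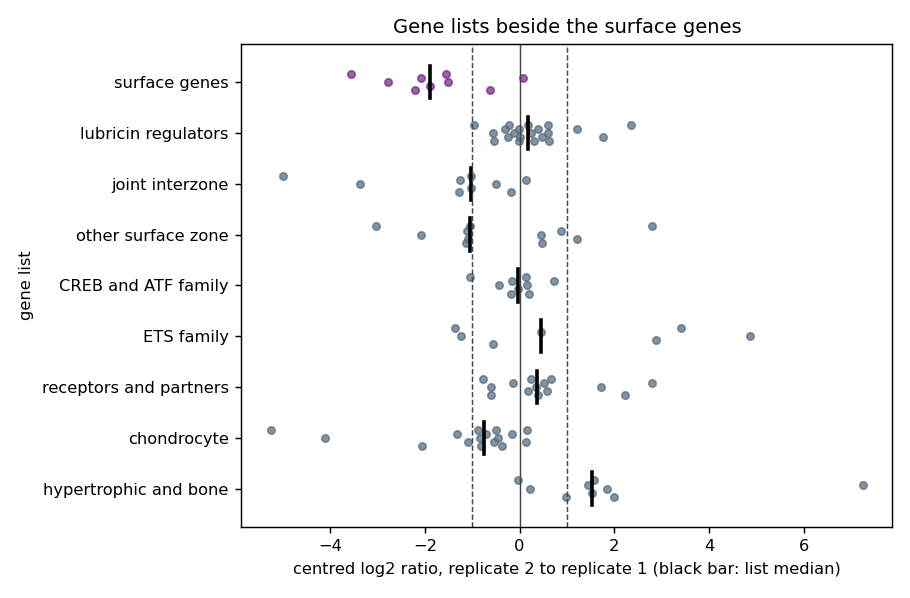
Centred log2 ratio of replicate 2 to replicate 1 for the surface genes and 8 other gene lists, 1 point per gene averaging 1 CPM or more. Black bars are list medians and dashed lines mark 2-fold. The medians are -1.89 for the surface genes, -1.03 and -1.04 for the interzone and other surface zone lists, and 1.54 for the hypertrophic and bone list.

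Several of the 9 genes are also expressed outside cartilage, so markers of the other cell types were read for the same libraries. *Erg* is expressed by endothelium: of 10 endothelial markers, 7 were listed at 0 in both libraries, *Cdh5*, *Kdr*, *Tek*, *Tie1* and *Emcn* among them, and the list summed to 0.565 CPM in replicate 1 against 1.76 in replicate 2. The highest were *Egfl7* (0.195 and 1.49 CPM) and *Pecam1* (0.231 and 0.166 CPM). *Prg4* and *Vcam1* are also expressed by the synovial lining, for which 8 synovial genes were read, not all of them specific to the lining. Of these, *Clic5* had 0.0231 and 0.0237 CPM and *Htra4* 0.901 and 0 CPM, and *Pi16* and *Dpp4* were listed at 0 in both libraries. The sum was 10.4 and 13.3 CPM, led by *Cd55* (5.24 and 9.42 CPM) and *Pdgfra* (2.03 and 2.71 CPM). Leukocyte markers summed to 5.31 and 5.96 CPM, led by *Cd14* (2.68 and 3.42 CPM) and *Cd68* (2.56 and 2.40 CPM), with *Ptprc* at 0.0231 and 0.0474 CPM and *Adgre1* and *Itgam* at 0 in both. The sort had removed CD31 and CD45 cells.

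The lists of tendon markers and of mural cell markers had median centred ratios of -0.52 and 0.20, over 4 genes each. *Tnmd* and *Kera*, defining genes of tendon and cornea stroma, were listed at 0 in both libraries. *Scx*, which is in both the tendon and the interzone list, had 35.3 and 30.9 CPM. *Mkx* had 15.2 and 16.4 CPM, and *Fmod*, which cartilage also expresses, had 3462 and 2934 CPM. Of the tendon list, *Egr1*, also an immediate early gene, was lower in replicate 2 (112 and 45.7 CPM). In the list of pericytes and smooth muscle, *Cspg4* (538 and 619 CPM), a proteoglycan gene that chondrocytes share, and *Acta2* (53.4 and 93.0 CPM) were highest, *Myh11* had 0.139 and 0 CPM, *Abcc9* had 0.0231 and 0.142 CPM, and *Notch3* was higher in replicate 2 (0.540 and 2.14 CPM).

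Cartilage and bone genes moved between the same libraries. Of 16 chondrocyte genes at 1 CPM or more, 5 were lower in replicate 2 by more than 2-fold on the centred scale and none higher, with a median of -0.76. Without centring 4 were lower, against 3.71% of all genes. The 5 lower on the centred scale were *Matn1*, *Matn3*, *Chad* (6362 and 1891 CPM), *Snorc* (259 and 128 CPM) and *Col9a1* (1881 and 1087 CPM). The lowest of the list by mean CPM were *Epyc* (1.22 and 0.688 CPM) and *Sox5* (38.3 and 52.4 CPM). Of 9 hypertrophic and bone genes, 6 were higher and none lower, with a median of 1.54, and these were *Spp1* (osteopontin, 4620 and 20523 CPM), *Mmp13* (8.96 and 44.8 CPM), *Alpl* (0.462 and 1.92 CPM), *Sp7* (1.96 and 6.81 CPM), *Panx3* (0.670 and 2.75 CPM) and *Dmp1*. *Col10a1* was at 1752 and 2109 CPM, inside 2-fold, and *Ihh* (0 and 0.332 CPM) and *Bglap* (0.0787 and 0.229 CPM) were the lowest. The part of these differences in the values of the 9 surface genes was not tested.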

How the data were processed

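The authors deposited one table of CPM values per library. They aligned single-end reads of 50 bases to GRCm38 (mm10) with GENCODE M25 by STAR 2.7.3a in Partek Flow 10.0.21.0801, assigned reads to genes by Partek E/M, which can divide a read among genes, and normalized to CPM. An offset of 0.0001 CPM in every deposited value was subtracted. The submitters' notes give no further filter.

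Of the values up to 100 implied reads, 65.3% in replicate 1 and 64.0% in replicate 2 lay within 0.05 of a whole multiple of 1 read. The others were not whole, so no count model was fitted for the ratios or calls, although the plan had provided for files of counts. The counting intervals do use Poisson error on the implied reads, and are approximate for that reason. Ratios used a pseudocount of 0.1 CPM and were centred on the median of genes averaging 1 CPM or more, and a gene past 2-fold on that scale was called. Trimmed means left out 30% of ratios and 5% of levels on each side.

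Exonic lengths, coordinates and shared 50-base windows come from GENCODE M21 on GRCm38, an earlier release than the authors' (97.2% of gene names matched). Promoters come from RefSeq, and primers from the study's supplement. The members and the other 14 lists were chosen with earlier results of these data known. Of 172 list entries, 4 (*Dact2*, *Fev*, *Cd3e* and *Kcnj8*) were not listed. Named by rule were the 9 members, *Sox9*, *Col2a1*, *Acan* and *Col10a1*, and from each list its 2 highest and 2 lowest genes and each gene past 2-fold, with up to 6 more where a member's family, receptor or marker cell type is described, and the 5 genes nearest *Prg4*. Alternatives covered scaling, pseudocount, centring, fold, length and leaving out each library. Centring on *Col2a1* and on *Acan* was added after seeing the data. The calls past 2-fold were tested on simulated data with counting error only, with changes placed in genes of at least 10 CPM. That test covered neither the spread between cultures nor genes as low as *Creb5* and *Cilp*. Software was matplotlib 3.10.9, scipy 1.17.1, pandas 2.3.3 and numpy 2.4.6 under Python 3.11.15.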

Additional observations from a re-analysis of the deposited data

How the results depend on the processing

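Of 282 values recomputed under alternatives for 70 results, 209 stayed within a limit, 73 moved past it, and no called value changed sign. The limit was the SD of the 2 libraries for levels, ranks and ratios between genes, and the counting interval for ratios between libraries. For list ratios it was a fixed width and for counts a fixed fold, so the counts of 5, 6 and 8 surface genes below are among the 209. Of the 209, 56 leave out 1 library. With 2 libraries this moves a mean by less than its SD by construction, so for levels and log2 ratios it says nothing about stability. Without replicate 1 or 2 the level of *Creb5* was 1.33 or 7.79 CPM and that of *Abi3bp* 7.83 or 75.2 CPM. Ranks per kilobase were not fixed in this way: *Prg4* stayed at 1 without replicate 1 or 2, and some others moved, such as *Erg* from 5 to 4 without replicate 2. The mean of *Prg4* was 6110 CPM in place of 3694 CPM when the total excluded the 10 highest genes. The centred log2 ratio of *Prg4* was -0.59 with a pseudocount of 1 CPM, -0.31 without centring, -0.58 centred on all genes above 0 in both libraries, -0.64 centred on genes of at least 10 CPM, 0.25 centred on *Col2a1* and -0.07 centred on *Acan*. It therefore changed direction when centred on *Col2a1*, and was inside 2-fold under each of these. The count of surface genes lower by more than 2-fold was 7 as reported, 5 centred on *Col2a1*, 6 centred on *Acan*, 8 at a threshold of 1.5-fold and 7 under each of the other 6 alternatives. With coding transcript lengths the log2 ratio of *Prg4* to *Col2a1* was -4.80. Without length correction it was -5.06, that to *Acan* -1.83 and that to *Col10a1* 0.93. Over genes of at least 10 CPM the median of the surface genes was 113 CPM in place of 41.5, and their median centred ratio -1.55. Some medians of other lists, which are not calls, changed sign. Over genes of at least 10 CPM the ETS median went from 0.46 to -0.05. The CREB and ATF median went from -0.03 to 0.14. Over all genes above 0 the median of the other tenascins went from 1.41 to -0.28. The synovial median went from 0.1 to -0.63. No paired analysis was possible because the libraries are of 1 group. With 2 libraries of 1 condition the spread between cultures can be described but not tested, and levels rest on a per-million total of which a few collagen genes take a large share.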
